A study of Bos taurus with 6 samples.

Results

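The late-numbered bovine miRNAs described here are the known cow miRNAs whose miRBase number is 2000 or above, other than the miR-2284, miR-2285, miR-3600 and miR-3604 names. They were taken from the list of miRNAs counted in milk extracellular vesicles (EVs) by the prefix bta-miR- and the number in the name. The rule gave 44 members among 276 known miRNAs and 779 listed miRNAs in all, the others being predicted sequences without a miRBase name. The remaining known miRNAs were 210 with a number below 2000, let-7 included, and 22 with the 4 names that were left out. The EVs came from the milk of 6 female Holstein cows in mid lactation, at 101 ± 10 days in milk, 574 ± 36 kg of body weight and 32 ± 2 kg of milk per day, kept in chambers at 20 °C and 40% humidity. Of these, 3 control cows ate a total mixed ration, and 3 replacement cows ate a ration with less alfalfa hay, made up with whole cotton seed and soybean hull. Each cow gave 1 small RNA library. The counts of known miRNAs were 70490, 161240 and 61156 in control cows 1 to 3 and 176919, 96254 and 69625 in replacement cows 1 to 3.

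EVs are membrane-bound particles that cells release, and those of milk carry small RNA. A miRNA is cut from a hairpin precursor and pairs with messenger RNA mainly through its seed, a short stretch near its 5′ end, so miRNAs with the same seed are grouped as a family. miRBase numbers are given in the order of submission, orthologous miRNAs keep the same number in different species, a letter after the number marks close relatives, and -5p and -3p name the arm of the hairpin.

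The sequences that the results turn on are given 5′ to 3′ as listed in the count table, with the seed (bases 2 to 8) in capitals. The most counted member is shown first, beside the lower-numbered miRNAs that have the same seed, because it holds 1 of them whole.
bta-miR-10174-3p: aTCACATTgccagggattaccacg
bta-miR-23b-3p: aTCACATTgccagggattaccac
bta-miR-23a: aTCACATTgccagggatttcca

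The other arm of the same hairpin is set beside the other arm of miR-23b. The member starts 1 base earlier, which shifts its seed by 1 base.
bta-miR-10174-5p: tGGGTTCCtggcatgctgattt
bta-miR-23b-5p: gGGTTCCTggcatgctgattt

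A pair of members share a seed with each other and differ at their first base.
bta-miR-10225a: cCGAGCCTgacagatcacaca
bta-miR-10225b: tCGAGCCTgacagatcacaca

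Another pair of members each share a seed with an abundant or widely counted miRNA of a lower number.
bta-miR-11971: tGAGGGGCagagagtgagaa
bta-miR-423-5p: tGAGGGGCagagagcgagacttt
bta-miR-10175-5p: tGGAGAGAacaggtggcttt
bta-miR-185: tGGAGAGAaaggcagttcctga

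The remaining ones are well-counted members whose bases 2 to 8 match bases 2 to 8 of no other listed sequence, and bta-miR-10167-3p, which was counted in control cows only.
bta-miR-6529a: gAGAGATCagaggcgcagagt
bta-miR-3432a: tGCGGGATctttagttgtggtg
bta-miR-11973: cTTGCTGAgtgacctccctgct
bta-miR-2419-5p: aTCGCATCaacactcgtctgtt
bta-miR-2448-3p: gTGGTTGAttggatccgtgggt
bta-miR-10167-3p: cGGGTGGTcggggcgggtcag

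The 44 members together held 4050 counts. Their share of all known miRNA counts was 0.416% in control cow 1 (95% Wilson interval 0.3708 to 0.4659), 0.680% in control cow 2 (0.641 to 0.721) and 0.648% in control cow 3 (0.587 to 0.714). It was 0.738% in replacement cow 1 (0.699 to 0.779), 0.698% in replacement cow 2 (0.647 to 0.753) and 0.412% in replacement cow 3 (0.367 to 0.463). On this scale each diet had 1 cow with a low share and a pair of cows with a high one, and the diets overlapped. The mean was 0.599% ± 0.146 (SD, n = 6), with 0.581% ± 0.144 (n = 3) in control and 0.616% ± 0.178 (n = 3) in replacement cows, a difference smaller than the SD of either diet with known counts as the total. In bulk libraries such as these, fewer EVs that carry a miRNA and fewer copies of it per EV cannot be told apart. The lower-numbered miRNAs held 98.5% ± 0.386 and the 4 names left out 0.937% ± 0.314, of which bta-miR-3600 alone was 0.840% ± 0.304. On the deposited RPM scale, in which counts are scaled to a fixed total of reads of the whole library, the members summed to 22.4, 87.1 and 31.9 RPM in control cows and 97.7, 55.4 and 22.8 RPM in replacement cows. As a share of all listed counts, predicted miRNAs included, they were 0.0892%, 0.197% and 0.102% in control and 0.310%, 0.246% and 0.106% in replacement cows. On both of these scales control cow 3 was low as well, and the diets still overlapped. The diet means over all listed counts were 0.129% ± 0.0588 and 0.221% ± 0.104 (SD, n = 3 each), a ratio of 1.70 against 1.06 over known counts, and their difference of 0.0911 percentage points was larger than the control SD and smaller than the replacement SD. Known miRNAs themselves were 21.5%, 29.0% and 15.8% of all listed counts in control and 42.0%, 35.2% and 25.7% in replacement cows.

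**Figure D1:**
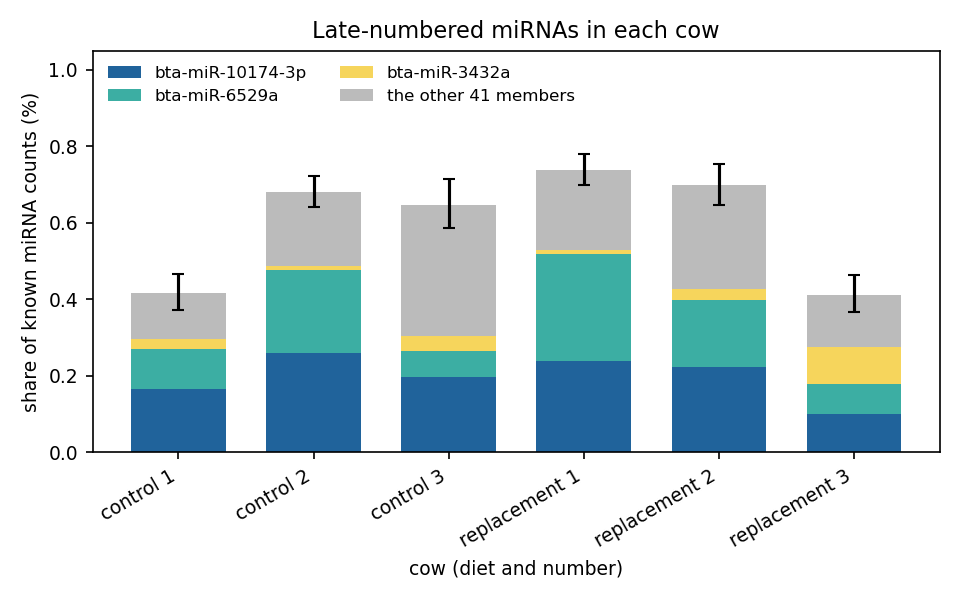
Bars give the share of all known miRNA counts (%) held by the 44 late-numbered miRNAs in each of the 6 cows, divided into the 3 members counted in every cow and the other 41, with the 95% Wilson interval of the sum. Control cow 1 and replacement cow 3 were lowest at 0.416% and 0.412%.

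A few members carried most of these counts. bta-miR-10174-3p and bta-miR-6529a had 2544 of the 4050 counts, or 62.8%, against 34.98% for the 2 most counted of the lower-numbered miRNAs. To reach 90% of the counts took 15 of the 44 members and 33 of the 210 lower-numbered miRNAs, a smaller part of their class. Over the cows, bta-miR-10174-3p gave 32.7% ± 5.67 (SD, n = 6) of the members' counts and bta-miR-6529a 24.997% ± 9.67. bta-miR-10174-3p was the most counted member in 5 cows and bta-miR-6529a in replacement cow 1. The other 42 members together were 0.145%, 0.204% and 0.384% of known counts in control cows 1 to 3 and 0.219%, 0.301% and 0.234% in replacement cows 1 to 3, so they were highest in control cow 3, where the 2 leading members were not.

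By number, the 11 members from 10164 to 10225 held 44.8% of the members' counts (1813) and the 10 members from 3431 to 7859 held 37.2% (1507). The 13 members from 2299 to 2904 held 11.4% (460), and the 10 members from 11971 to 12039 held 6.67% (270). The 3 members counted in every cow were all in the blocks 3431 to 7859 and 10164 to 10225. The block from 2299 to 2904 was the largest in members, but 8 of its 13 were counted in 1 cow only.

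bta-miR-10174-3p was counted 116, 420 and 120 times in control cows 1 to 3 and 420, 214 and 69 times in replacement cows 1 to 3. These counts were shares of 0.165%, 0.260% and 0.196% in control and 0.237%, 0.222% and 0.0991% in replacement cows. Replacement cow 3 was lowest and control cow 2 highest, and the diets overlapped. Its mean of 0.197% ± 0.0582 (SD, n = 6) placed it at rank 52 of the known miRNAs, below 50 of the lower-numbered ones, and its coefficient of variation (CV, SD divided by mean) of 0.296 was the lowest of the members with a mean of 10 or more counts.

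bta-miR-6529a, whose precursor gene lies within the span of GSK3B, a protein kinase gene, and beside MIR6529B, was counted 75, 347 and 41 times in control and 499, 168 and 55 times in replacement cows. Its shares were 0.106%, 0.215% and 0.0670% in control and 0.282%, 0.175% and 0.0790% in replacement cows. Its highest and lowest cows differed 4.21-fold, against 2.63-fold for bta-miR-10174-3p, and each diet had both high and low cows. The mean of 0.154% ± 0.0849 (SD, n = 6) lay within 1 SD of that of bta-miR-10174-3p.

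bta-miR-3432a was the third member counted in every cow, with 18, 20 and 24 counts in control and 18, 28 and 67 counts in replacement cows. Its shares were 0.0255%, 0.0124% and 0.0392% in control and 0.0102%, 0.0291% and 0.0962% in replacement cows. Replacement cow 3, the lowest cow for bta-miR-10174-3p, was the highest for bta-miR-3432a, and without it the mean fell from 0.0354% ± 0.0317 (SD, n = 6) to 0.0233%. Its precursor has a copy within TP53BP1, a gene of the DNA damage response, and another within HIP1.

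**Figure D2:**
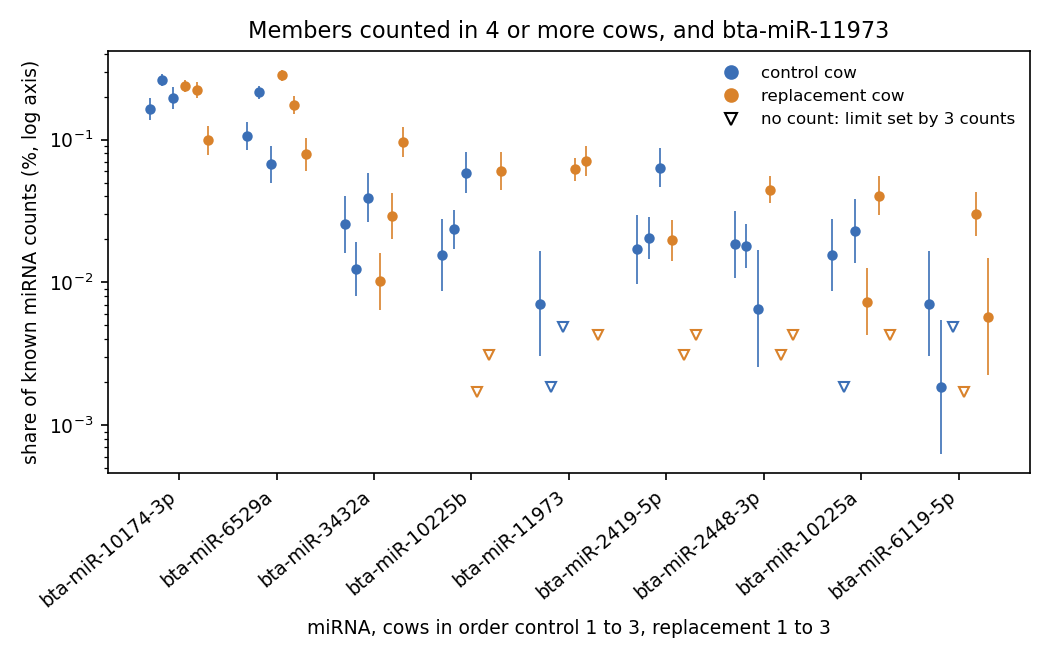
Points give the share of known miRNA counts (%, log axis) in each cow for the 8 members counted in 4 or more cows and for bta-miR-11973, with 95% Wilson intervals, and open triangles mark the limit that 3 counts set where a cow had no count. Below the 3 members counted in every cow, each miRNA was absent from some cows and well above that limit in others.

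The next members by share were counted in some cows of both diets. bta-miR-10225b, whose precursor lies within DMBT1, a gene of a glycoprotein secreted at epithelial surfaces, had 11, 38 and 36 counts in control and 0, 0 and 42 counts in replacement cows. bta-miR-10225a, its close relative, had 11, 0 and 14 counts in control and 13, 39 and 0 counts in replacement cows. Both were counted together in control cows 1 and 3 only, and in the other 4 cows 1 of them took all counts of the pair. Their sum was 22, 38 and 50 counts in control and 13, 39 and 42 counts in replacement cows, and the CV of its share, 0.655, was lower than that of either alone (1.03 for bta-miR-10225b and 1.09 for bta-miR-10225a). Parts of nearly equal CV give a sum with a lower CV unless they rise and fall together. The lower value therefore does not show how reads were divided. They differ by C1T over 21 nt, with positions counted from 1 at the 5′ end of bta-miR-10225a. How reads that fit both were assigned is not given in the sources used here, so the division between them is uncertain.

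bta-miR-11973, whose precursor lies within SLC24A3, a cation exchanger gene, had 5, 0 and 0 counts in control and 110, 68 and 0 counts in replacement cows. Its shares in replacement cows 1 and 2 were 0.0622% and 0.0706%, against 0.00709% in control cow 1. A count of 0 allows up to 0.00186% in control cow 2, 0.00491% in control cow 3 and 0.00431% in replacement cow 3. It was thus high in a pair of replacement cows and low or undetected in the other 4, replacement cow 3 included. bta-miR-10167-3p, within the span of the major histocompatibility gene BoLA, had 0, 40 and 21 counts in control cows and 0 in each replacement cow. Control cow 1 was at 0 as well, so the diets overlapped for this member too.

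bta-miR-2419-5p had 12, 33 and 39 counts in control and 35, 0 and 0 counts in replacement cows. bta-miR-2448-3p had 13, 29 and 4 counts in control and 79, 0 and 0 counts in replacement cows. Both were counted in every control cow and in replacement cow 1 alone among replacement cows, and neither precursor lies within another gene. bta-miR-2474, within SHB, was likewise counted in replacement cow 1 alone among replacement cows, but not in every control cow. It had 8, 0 and 15 counts in control and 13, 0 and 0 counts in replacement cows. bta-miR-10172-3p had 11 counts in control cow 3 and 31 in replacement cow 1, and bta-miR-2443, close to the let-7 genes MIRLET7A-3 and MIRLET7B, had 24 counts in replacement cow 2 and 12 in replacement cow 3, with 0 elsewhere for both.

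Other members had most of their counts in 1 cow. bta-miR-10175-5p, within PTGS1, a cyclooxygenase gene, had 75 counts in control cow 2, 1 in replacement cow 2 and 0 elsewhere. bta-miR-6119-5p, within the ribosomal protein gene RPL39, had 5, 3 and 0 counts in control and 0, 29 and 4 counts in replacement cows. bta-miR-11986b, within the tight junction gene OCLN, had 1, 0 and 17 counts in control and 1, 0 and 0 in replacement cows. These members were found in more than 1 cow, but the counts outside the leading cow were 5 or fewer in each. The same held for bta-miR-7859, with 5 counts in control cow 2 and 23 in replacement cow 2, and bta-miR-10174-5p, with 1 count in each of control cows 2 and 3 and 21 in replacement cow 1.

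Several well-counted members were found in a single cow. bta-miR-12039, within CSF3R, the receptor gene for granulocyte colony-stimulating factor, had all of its 36 counts in control cow 3. bta-miR-10180-3p had its 36 counts in replacement cow 3, and bta-miR-2376, within TAPBP, a gene of antigen loading, its 37 counts in replacement cow 1. Each of these was far above the limit of 3 counts in its cow and at 0 in the other 5. Control cow 2 alone had bta-miR-6524 (32 counts, within PDCD4) and bta-miR-2483-3p (28 counts). Replacement cow 2 alone had bta-miR-2320-3p (27 counts), bta-miR-2299-3p (19 counts) and bta-miR-6119-3p (19 counts). The cow with bta-miR-6119-3p was thus also the one with most bta-miR-6119-5p, the other arm of its hairpin. The 19 members not yet described had 1 to 13 counts in their leading cow.

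Detection was sparse in comparison with lower-numbered miRNAs. Of the 44 members, 23 (52.3%) were counted in 1 cow, 8 in 2 cows, 5 in 3, 5 in 4, none in 5 and 3 (6.82%) in all 6. Of the 210 lower-numbered miRNAs, 45 (21.4%) were counted in 1 cow and 98 (46.7%) in all 6. Of the 22 miRNAs with the names left out, 13 (59.1%) were counted in 1 cow and 2 (9.09%) in all 6. Sparse detection was thus not particular to the members. The members were also less abundant than lower-numbered miRNAs, with a median total of 21 counts over the 6 cows against 121.5. Of the 44, 28 (63.6%) reached 10 counts in a cow, against 172 of 210 (81.9%). Among miRNAs with a total of 60 to 200 counts, a range chosen after seeing the data, 1 of 8 members (12.5%) and 12 of 39 lower-numbered miRNAs (30.8%) were counted in all 6 cows. Among miRNAs with a mean of 10 or more counts it was 3 of 10 members (30%) and 98 of 130 lower-numbered miRNAs (75.4%).

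**Figure D3:**
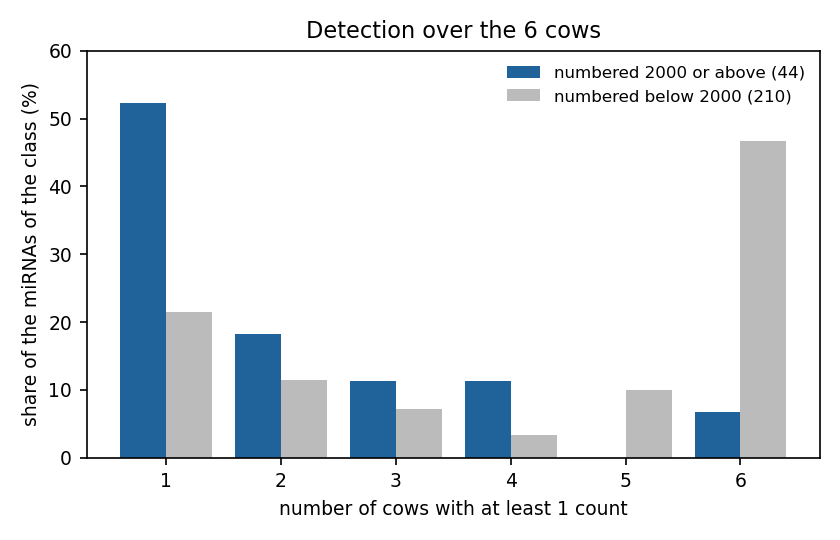
Bars give the share (%) of the 44 late-numbered and of the 210 lower-numbered known miRNAs that were counted in 1 to 6 cows. Late-numbered miRNAs were most often in 1 cow (52.3%) and lower-numbered ones in all 6 (46.7%).

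The 23 members counted in 1 cow were not all at the limit of detection. They had 1 to 37 counts with a median of 7, and 10 of them had 10 or more counts, while 4 had 3 or fewer. The 45 lower-numbered miRNAs counted in 1 cow were alike in this, with 1 to 34 counts and a median of 8. Of the 23, 13 were in a control cow and 10 in a replacement cow, against 31 and 14 of the 45.

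The number of members detected was 17, 19 and 18 in control cows and 16, 13 and 9 in replacement cows. These ranges did not overlap. After all cows were thinned to 61156 counts by a random draw, the numbers were 15, 16 and 18 against 15, 12 and 9, which share the value 15. The draw was not repeated, so whether the ranges overlap at equal depth is uncertain. Lower-numbered miRNAs numbered 148, 153 and 155 in control and 153, 122 and 128 in replacement cows, so replacement cows 2 and 3 were low for both classes. Control cow 1 and replacement cow 3 had nearly the same depth and summed share and yet 17 and 9 members. By diet, 16 members were counted in control cows only, 11 in replacement cows only and 17 in both, against 39, 18 and 153 of the lower-numbered miRNAs.

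Across cows the members were uneven. Among miRNAs with a mean of 10 or more counts, the median CV of the share was 1.12 for 10 members (0.296 to 2.39) and 0.576 for 130 lower-numbered miRNAs. With a total of 60 to 200 counts the medians were 1.16 for 8 members and 1.08 for 39 lower-numbered miRNAs, which lay close together. With a mean of 30 or more counts the median was 0.551 for 3 members and 0.409 for 94 lower-numbered miRNAs. Of the 5 most abundant lower-numbered miRNAs, bta-miR-26a (18.1% ± 1.73) had a CV of 0.0955, bta-miR-191 (14.1% ± 4.65) 0.330, bta-miR-486 (6.83% ± 2.77) 0.405, bta-miR-151-5p (5.39% ± 1.04) 0.193 and bta-miR-423-5p (4.62% ± 0.672) 0.145. The CV of bta-miR-10174-3p was within this range, although bta-miR-26a was 92.0 times as abundant and bta-miR-423-5p 23.5 times. Of the names left out, bta-miR-3600 ranked 21 with a CV of 0.362, bta-miR-2285bc had a mean share of 0.0354% ± 0.0199, close to bta-miR-3432a, and bta-miR-2284f (46 counts) and bta-miR-3604 (6 counts) were each counted in 1 cow.

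The median length was 22 nt for the members and for lower-numbered miRNAs. The members were spread more widely around it: 17 of 44 (38.6%) were 22 nt long against 106 of 210 (50.5%), and 33 (75.0%) against 183 (87.1%) were 21 to 23 nt long. Below 21 nt were 7 members (15.9%) and 9 lower-numbered miRNAs (4.29%), and the 3 miRNAs of 18 or 19 nt were all members, with 13 counts among them. Weighted by counts, the mean length was 22.3 nt in both classes, and most of the members' counts lay at 21 nt (1508), where bta-miR-6529a is, and at 24 nt (1400), where bta-miR-10174-3p is.

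**Figure D4:**
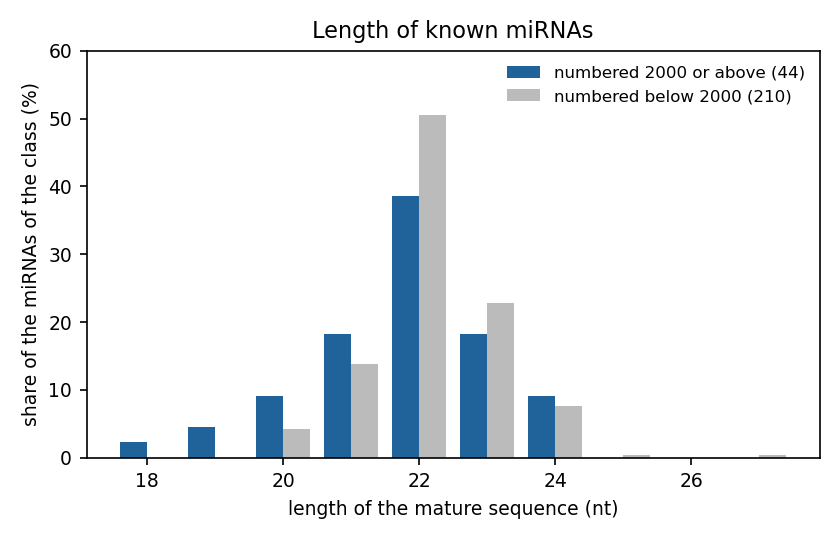
Bars give the share (%) of the 44 late-numbered and of the 210 lower-numbered known miRNAs at each length of the mature sequence in nt. Both peaked at 22 nt, and only late-numbered miRNAs were 18 or 19 nt long.

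The members were richer in G and C, with a median of 54.8% of their bases (22.7 to 90.5%) against 45.8% for lower-numbered miRNAs. Above 70% were 6 members (13.6%) and 3 lower-numbered miRNAs (1.43%). These 6 were thinly counted, with 113 counts in all, or 2.79% of the members' counts, and bta-miR-10167-3p (81.0%) and bta-miR-10180-3p (75.0%) held most of them.

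In sequence, 12 of the 44 members were related to another listed miRNA by seed, by overlap or as a reverse complement. bta-miR-10174-3p (24 nt) contains all 23 nt of bta-miR-23b-3p at its positions 1 to 23 and overlaps bta-miR-23a over 22 nt with the single difference A19T, counted from the 5′ end of the member. bta-miR-23b-3p was counted 138, 198 and 97 times in control and 278, 288 and 11 times in replacement cows. bta-miR-10174-3p took 45.7%, 68.0% and 55.3% of the pair's counts in control and 60.2%, 42.6% and 86.3% in replacement cows. It was the larger of the pair in 4 of 6 cows, and both were lowest in replacement cow 3. The CV was 0.296 for the longer sequence, 0.585 for the shorter and 0.373 for their sum, and without replacement cow 3 (chosen after seeing the data) these were 0.172, 0.364 and 0.169. The mean share of the longer one, 0.197% ± 0.0582, lay within 1 SD of the 0.158% ± 0.0925 of bta-miR-23b-3p. bta-miR-23a, with 3289 counts, was higher than bta-miR-10174-3p in every cow. Since the shorter sequence is held whole in the longer one and the treatment of reads that fit several miRNAs is not given in the sources used here, the division of counts between bta-miR-10174-3p and bta-miR-23b-3p is uncertain.

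**Figure D5:**
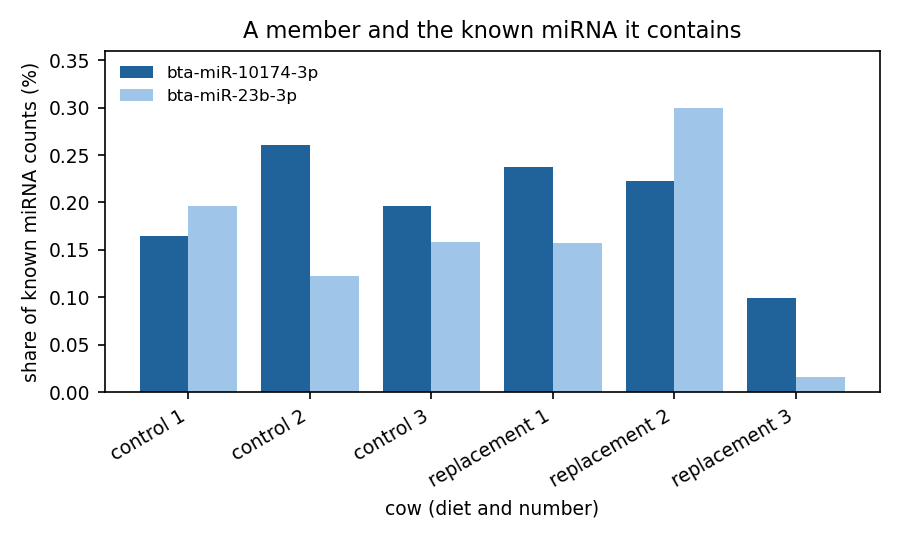
Bars give the share of known miRNA counts (%) of bta-miR-10174-3p and of bta-miR-23b-3p, whose sequence it contains, in each of the 6 cows, 1 library each. bta-miR-10174-3p was higher in 4 cows, and in replacement cow 3 it held 86.3% of the pair's counts.

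The other arm showed the same overlap at low counts. bta-miR-10174-5p contains all 21 nt of bta-miR-23b-5p at its positions 2 to 22, and both had most of their counts in replacement cow 1, with 21 and 57. The 3p arm of miR-10174 had 1359 counts and the 5p arm 23. In the other members with both arms listed, the 5p arm was ahead, with 76 against 5 counts for miR-10175 and 41 against 19 for miR-6119.

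bta-miR-11971, with 9 counts in control cow 1, 2 in control cow 2 and 0 elsewhere, overlaps bta-miR-423-5p over 20 nt with the differences T15C and A20C, counted from the 5′ end of the member. With 30061 counts of bta-miR-423-5p, the member was a minute addition to that seed. bta-miR-10175-5p shares the seed with bta-miR-185, within a longest common run of 9 nt. bta-miR-185 had 43, 89 and 137 counts in control and 39, 28 and 39 in replacement cows and so lacked the single-cow pattern of the member. bta-miR-10167-3p overlaps a predicted sequence over 18 nt with the differences T5G and T18G, and that sequence was counted in all 6 cows (156 counts) where the member was in 2. bta-miR-12039 is the reverse complement of a predicted sequence over 20 nt, which had 1 count, in the same cow as the member. bta-miR-2889, with 1 count in each of 3 cows, is the reverse complement of a pair of predicted sequences over 14 and 15 nt. bta-miR-2443, bta-miR-10178-5p and bta-miR-12034 share a seed with predicted sequences only, none of which had more than 21 counts.

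The comparison of diets asked whether replacing part of the hay moved any of these miRNAs. With edgeR fitted over all listed miRNAs, 7 of the 44 members passed the filter on low counts, against 117 of 210 lower-numbered miRNAs. At an adjusted p under 0.05 edgeR called 0 of the 7 members and 0 of the 227 miRNAs tested (0%). At an unadjusted p under 0.05 it was 0 of 7 against 8 of 227 (3.52%), and the shares of the diets did not overlap in 0 of 7 against 20 of 227 (8.81%). DESeq2, with its own filter, called 7 of the 390 miRNAs to which it gave an adjusted p (1.79%) and limma-voom 0 of 227, in neither case a member. With so few members in the fit, these counts do not set them apart from the background.

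Among the 7, the largest positive log2 fold change of replacement over control was that of bta-miR-3432a, 0.69 (SE 1.03), and the largest negative one that of bta-miR-2419-5p, -1.81 (SE 1.83), both with an edgeR adjusted p of 0.986. The former had 1 high replacement cow, and the latter was at 0 in a pair of replacement cows. bta-miR-10174-3p had -0.065 (SE 0.64), bta-miR-6529a 0.54 (SE 0.83), bta-miR-10225a 0.55 (SE 1.90), bta-miR-10225b -1.01 (SE 1.92) and bta-miR-2448-3p 0.44 (SE 1.95). Fold changes were positive in 4 and negative in 3, with a median of 0.44 beside 0.029 over all 227 miRNAs. The median SE, approximated from the test statistic, was 1.83 for the members and 0.70 for the 117 lower-numbered miRNAs in the fit. By this measure the fold changes of most members had wide errors. bta-miR-23b-3p had 0.14 (SE 0.93). Scaling by library size alone moved the median of the 227 miRNAs to 0.63 and bta-miR-10174-3p to 0.53. With DESeq2, in which tool, scaling and filter all differ, the median over 779 miRNAs was -0.22 and bta-miR-10174-3p had 0.045, and with edgeR without a filter these were -0.26 and -0.043.

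With no filter on low counts, edgeR gave all 44 members an adjusted p. It then called 15 of 779 miRNAs (1.93%) and no member. At an unadjusted p under 0.05, 2 of the 44 members passed, against 44 of 779 (5.65%) in all, and with DESeq2 the same 2 passed against 41 of 767 (5.35%). DESeq2 gave 43 members a p and 18 an adjusted p, so the other 26 could not be called by it. The 2 were bta-miR-11973, higher in 2 of 3 replacement cows (edgeR adjusted p 0.420, DESeq2 adjusted p 0.457), and bta-miR-10167-3p, counted in 2 of 3 control cows and in 0 of 3 replacement cows (edgeR adjusted p 0.420, DESeq2 adjusted p 0.386). Neither passed the threshold.

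Cell type markers were read beside these results. The 8 red blood cell miRNAs summed to 11.5%, 7.60% and 20.9% in control and 6.72%, 9.81% and 11.4% in replacement cows (mean 11.3% ± 5.07, SD, n = 6), led by bta-miR-486, with 7 of 8 counted in every cow. The cow with the highest sum, control cow 3, was also the one with the highest share of the 42 members outside the leading pair, all counts of bta-miR-12039 and the highest share of bta-miR-2419-5p. The same cow had the lowest share of bta-miR-6529a (0.0670%). Control cow 1, with the next highest sum, had the lowest share of the 42 members (0.145%). The 11 mammary epithelium miRNAs summed to 20.3% ± 1.91, of which bta-miR-26a, found in many tissues, was 18.1%, and 5 of 11 were counted in every cow. By cow the epithelium list was 20.3%, 22.7% and 17.0% in control and 20.8%, 19.6% and 21.4% in replacement cows. In replacement cow 2 bta-miR-200a, bta-miR-200b, bta-miR-200c, bta-miR-141, bta-miR-429 and bta-miR-205 were at 0 while the other 5 had 46 to 17085 counts, and bta-miR-200b and bta-miR-429 were at 0 in other cows as well. The 8 leukocyte miRNAs summed to 2.47% ± 0.515, led by bta-miR-150, with 7 of 8 counted in every cow and bta-miR-142-3p at 1 count in all. The part of these cell types in the members' values was not tested.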

How the data were processed

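Small RNA libraries of milk EVs from 6 separate Holstein cows were analysed, with diet and cow number taken from the labels. Per the labels and methods, the authors trimmed reads with cutadapt 1.14, aligned them to ARS-UCD1.2 (Bowtie is listed) and annotated known miRNAs with miRBase. The authors deposited raw counts per mature miRNA with its sequence and length. The deposited RPM values are those counts scaled to a fixed total per cow, under the name TPM. A table of the authors' own comparison of the diets (fold changes and p-values) was not used.

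Shares were computed per cow over all known counts (61156 to 176919). Wilson intervals (95%) and limits of 3 counts cover counting error only. Diets were compared with edgeR 4.0.16 (TMM, filterByExpr, quasi-likelihood test, Benjamini-Hochberg over all 227 miRNAs tested) in R 4.3.3, and again with limma 3.58.1 and DESeq2 1.42.0. The edgeR test gives no SE. Each SE printed with an edgeR fold change is the size of that fold change over the square root of its F statistic, an approximation. Relatives were sequences with the same seed, an overlap of 16 nt or more with up to 2 differences, or a reverse complement of 13 nt or more. RefSeq (ARS-UCD2.0) had a precursor gene for 40 of 44 members and was used for names and neighbours (within 10 kb) only. A precursor was said to lie within a gene when its start and end fell in the span of that gene. Strand, introns and exons were not checked. Tables were handled in Python 3.11.15.

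Named with each cow's value were members with 10 or more counts in a cow, up to the 25 of highest mean share. Also named were the largest rise and fall in the fit, members related in sequence to another listed miRNA, the 5 most abundant lower-numbered miRNAs and the highest of each name left out. Marker lists covered mammary epithelium, red blood cells and leukocytes. The members and lists were chosen with earlier results of these data known.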

Additional observations from a re-analysis of the deposited data

Results flagged for a closer look

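Of 14 values checked over the 6 cows (the shares of the 8 members counted in 4 or more cows, the share of bta-miR-23b-3p and 5 sums or numbers detected), 3 had 1 cow far from the other 5. By Dixon's criterion chance flags about 1 in 20 groups of normal, independent values. That number need not hold here, since these shares are skewed, some hold counts of 0, and the sums include their members. bta-miR-2419-5p was high in control cow 3, at 0.0638% of known miRNA counts. bta-miR-3432a was high in replacement cow 3, at 0.0962%. bta-miR-6119-5p was high in replacement cow 2, at 0.0301%. The cow that stood apart was a different one each time.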

How the results depend on the processing

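The summed share of 0.599% was 0.175% with predicted miRNAs in the total, 1.54% with the 4 left-out names included, 0.402% without the most counted member, 0.225% without the 3 most counted and 0.3995% without both arms of miR-10174 (the last chosen after seeing the data). With each cow left out in turn, the summed share ranged from 0.571% to 0.636%. Members detected numbered 28 at 10 counts in a cow and 3 in every cow, and the median CV was 0.551 with a mean of 30 or more counts. The diet difference in the summed share (0.0352 percentage points) ranged from -0.0474 to 0.137 with a cow left out, and with predicted miRNAs in the total it was 0.0911, a ratio of diet means of 1.70 in place of 1.06.

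miRNAs called for diet numbered 0 with edgeR, 7 with DESeq2, 15 without a filter and 0 to 1 with a cow left out (1 without control cow 2 and 1 without control cow 3), and 0 members were called in any setting. Of 77 log2 fold changes of the 7 members under alternatives, 11 changed sign, in 5 members. Among these was bta-miR-10174-3p with library size alone, a scaling that also moved the median of all 227 miRNAs, from 0.029 to 0.63. That change of sign therefore says nothing about this member. bta-miR-10174-3p was 0.045 with DESeq2, 0.53 with library size alone and -0.56 to 0.44 with a cow left out. With a cow left out, bta-miR-10225a ranged from -1.14 (without replacement cow 2) to 1.29, bta-miR-2448-3p from -6.81 (without replacement cow 1, when the diet was left at 0 and the fitted value depends on the prior count) to 1.01, bta-miR-3432a from -0.23 (without replacement cow 3) to 1.08 and bta-miR-6529a from -0.28 (without replacement cow 1) to 1.46. bta-miR-10225b and bta-miR-2419-5p stayed negative, down to -8.02 without replacement cow 3 and -7.93 without replacement cow 1, again with the diet left at 0. With cow number as a replicate block, bta-miR-10225a was -0.27, bta-miR-2448-3p was -3.10, bta-miR-10225b was -4.24, bta-miR-2419-5p was -4.77 and 0 miRNAs were called. To see whether cow numbers mark pairs, the mean of its diet was subtracted from each cow's log values over 227 miRNAs. The remaining deviations correlated at -0.11, -0.16 and 0.18 between same-numbered cows and at -0.26 to 0.32 between differently numbered cows. The numbers were therefore not taken as pairs. Beyond leaving out counts, members or cows, the cause was not tested. A count of 0 in a cow does not exclude a share below the limit that 3 counts set there.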
